A study of Mus musculus with 14 samples.

Results

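The RUNX1 binding sites of 2 successive stages of blood development were compared: hematopoietic progenitors (HP) and the macrophages (MAC) that arise from them. RUNX1 was mapped by ChIP-seq, in which DNA crosslinked to a protein is precipitated with an antibody and sequenced, and each stage gave 1 list of peaks, every peak 400 bp wide around its summit. The HP list held 977 peaks and the MAC list 72, together 1049 of the 158488 peaks in the 14 lists of the series. A peak was called shared when it overlapped a peak of the other list by at least 1 bp, which gave 941 HP only peaks, 36 shared peaks (36 in either list) and 36 MAC only peaks. Each peak was assigned to the coding gene with the nearest transcription start site (TSS).

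Both populations were derived in culture from 1 mouse embryonic stem cell line of strain 129 with a GFP reporter in the brachyury gene. HP were isolated as CD41+ cells, and MAC were CD11b+ cells grown from CD41+ cells by terminal differentiation. The same RUNX1 antibody was used at both stages, no gene was perturbed and no drug was given. The lists compared with RUNX1 came from the same stages: PU.1 and C/EBPβ in HP and MAC, and GATA1, GATA2 and GFI1B in HP. The lists hold positions without heights or read counts, so sequencing depth was not used here and the identity of the sorted cells could not be checked against marker genes. Peak-calling thresholds were set for each list on its own, less strictly for RUNX1 in MAC than in HP, and list lengths therefore do not measure amounts of binding. By the study's methods, qPCR at test regions showed enrichment for RUNX1 in HP before sequencing, whereas the MAC RUNX1 sample is marked as lacking such enrichment and was sequenced all the same. This limit applies to every result on the MAC list. With 1 list a group there are no replicates: every test below compares the peaks of 2 libraries and not the 2 conditions.

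RUNX1 is the DNA-binding subunit of core-binding factor. It binds DNA together with CBFβ at the sequence TGTGGTT, and it is required for the emergence of blood cells from hemogenic endothelium. PU.1, encoded by Spi1, is an ETS family factor that drives myeloid differentiation, and C/EBPβ is a leucine zipper factor of maturing macrophages. GFI1B is a repressor of progenitors and of the erythroid and megakaryocytic lineages, where GATA1 and GATA2 also act.

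The following stretches of shared peaks are shown because they are assigned to regulators of blood cells (Runx1, Gfi1, Lyl1), to the AP-1 gene Fosb and to the ferritin gene Fth1, and hold the RUNX consensus inside both the HP and the MAC peak. The consensus is in capitals (TGTGGTT, or AACCACA where it lies on the other strand). All sequences are from the plus strand of the RefSeq GRCm38 (mm10) assembly. The Runx1 stretch (chr16:92696678-92696707) lay in an untranslated exon downstream of the proximal promoter, and only 30 bases around the site are given. The Gfi1 stretch (chr5:107759245-107759331) lay in an intron of the neighbouring Evi5. The Lyl1 stretch (chr8:84703550-84703755) lay in an intron of Lyl1. The Fosb (chr7:19316774-19316860) and Fth1 (chr19:9978505-9978599) stretches were intergenic.
Runx1 shared: gtggctgatccTGTGGTTtggtgggagttg
Gfi1 shared: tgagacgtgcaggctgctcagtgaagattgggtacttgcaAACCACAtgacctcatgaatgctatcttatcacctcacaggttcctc
Lyl1 shared: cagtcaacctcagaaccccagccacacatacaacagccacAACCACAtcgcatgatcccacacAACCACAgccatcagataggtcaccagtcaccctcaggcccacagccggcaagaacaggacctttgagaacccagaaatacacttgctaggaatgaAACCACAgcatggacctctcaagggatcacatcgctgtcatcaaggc
Fosb shared: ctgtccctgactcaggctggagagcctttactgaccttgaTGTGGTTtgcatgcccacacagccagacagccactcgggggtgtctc
Fth1 shared: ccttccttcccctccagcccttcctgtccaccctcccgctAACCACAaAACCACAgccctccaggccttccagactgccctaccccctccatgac

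The MAC only stretches are shown for the distal promoter of Runx1, for a pair of leukocyte surface genes, Ptprc and Clec4d, and for Lmtk2, whose peak held 3 copies of the consensus. At Runx1 the 2 stretches of 30 bases (chr16:92825938-92825967 and chr16:92826022-92826051) lay at the untranslated first exon. The Ptprc stretch (chr1:138136480-138136566) lay in an intron of Ptprc, the Lmtk2 stretch (chr5:144126070-144126213) in an intron of Lmtk2, and the Clec4d stretch (chr6:123260389-123260475) upstream of its gene.
Runx1 MAC only, first site: ctgcgaaagccTGTGGTTtgcattcagtgt
Runx1 MAC only, next sites: gctacccaactTGTGGTTcTGTGGTTgttt
Ptprc MAC only: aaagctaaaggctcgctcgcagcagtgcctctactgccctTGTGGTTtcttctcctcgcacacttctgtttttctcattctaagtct
Clec4d MAC only: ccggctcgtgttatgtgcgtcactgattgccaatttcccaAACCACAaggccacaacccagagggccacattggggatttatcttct
Lmtk2 MAC only: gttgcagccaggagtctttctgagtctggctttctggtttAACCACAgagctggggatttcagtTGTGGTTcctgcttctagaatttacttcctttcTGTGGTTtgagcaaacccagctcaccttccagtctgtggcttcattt

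The HP only stretches are shown for the intron of Runx1 (chr16:92822129-92822215), the region upstream of Fos (chr12:85472344-85472430), the intergenic region downstream of Cd300a (chr11:114907700-114907826) and the region upstream of Cbfa2t3 (chr8:122719904-122719990). Fos encodes a subunit of AP-1, Cd300a an inhibitory receptor of leukocytes, and Cbfa2t3 the corepressor ETO2.
Runx1 HP only: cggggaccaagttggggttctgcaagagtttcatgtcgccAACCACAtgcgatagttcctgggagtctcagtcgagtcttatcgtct
Fos HP only: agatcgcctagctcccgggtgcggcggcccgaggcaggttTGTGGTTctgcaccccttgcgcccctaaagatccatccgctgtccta
Cd300a HP only: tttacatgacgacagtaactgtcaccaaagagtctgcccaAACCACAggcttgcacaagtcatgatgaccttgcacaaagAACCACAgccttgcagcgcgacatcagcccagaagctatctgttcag
Cbfa2t3 HP only: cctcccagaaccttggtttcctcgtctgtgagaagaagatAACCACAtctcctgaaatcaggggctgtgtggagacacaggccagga

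The shared peaks made up 3.68% of the HP list (95% exact Clopper-Pearson interval 2.59 to 5.06) and 50.0% of the MAC list (38.0 to 62.0). These intervals, like those that follow, cover counting error only. The summits of the shared pairs lay close together. Their centres were 1 to 258 bp apart with a median of 18 bp, and 27 of the 36 pairs lay within 50 bp. The pair farthest apart was at Rara, where the peaks overlapped by 142 bp. The MAC only peaks lay a median of 228 kb from the nearest HP RUNX1 centre, and no background distance was computed. In 7 of 36 that distance was under 10 kb, and the nearest was the peak assigned to Hook2, 508 bp from an HP only peak. The split chose the members and was not tested.

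HP only peaks met PU.1 in HP less often than shared or MAC only peaks. In the HP PU.1 list, 18.5% of HP only peaks (174 of 941, interval 16.1 to 21.1) had an overlapping peak, against 58.3% of shared peaks (21 of 36, 40.8 to 74.5) and 44.4% of MAC only peaks (16 of 36, 27.9 to 61.9). The shared peaks differed from the HP only peaks by 39.8 percentage points (Fisher's exact test, two-sided, adjusted p = 5.8e-06 by Benjamini-Hochberg over 45 tests). The MAC only peaks differed from the HP only peaks by 26.0 points (exact test, adjusted p = 0.00482). The difference between shared and MAC only peaks did not pass the test (exact test, adjusted p = 0.574). Among peaks over 2 kb from a TSS the shares were 27.7% (100 of 361), 71.4% (15 of 21) and 43.8% (14 of 32), and the MAC only peaks no longer differed from the HP only peaks past the threshold (exact test, adjusted p = 0.239). For scale, 13.8% of the peaks in the HP C/EBPβ, GATA1, GATA2 and GFI1B lists overlapped an HP PU.1 peak, as did 0.330% of all 400 bp tiles of the genome.

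Against the MAC PU.1 list, the share was 62.2% of HP only peaks (585 of 941, 59.0 to 65.3), 80.6% of shared peaks (29 of 36, 64.0 to 91.8) and 86.1% of MAC only peaks (31 of 36, 70.5 to 95.3). The MAC only peaks exceeded the HP only peaks by 23.9 points (exact test, adjusted p = 0.0145). The difference of 18.4 points between shared and HP only peaks did not pass over all peaks (exact test, adjusted p = 0.0940). Among distal peaks the shares were 90.5% (19 of 21) and 54.6% (197 of 361) and the difference passed (exact test, adjusted p = 0.00775). Within 2 kb of a TSS the shared and HP only shares were alike, 66.7% (10 of 15) and 66.9% (388 of 580), and were not tested apart. The MAC PU.1 list held 82866 peaks and the HP PU.1 list 10943, so the shares are compared between sets and not between the PU.1 lists. In the MAC C/EBPβ list 42.5% of peaks overlapped a MAC PU.1 peak, and 2.48% of the genome tiles did.

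Stage by stage, 195 of the 977 HP RUNX1 peaks (20.0%) met a PU.1 peak of HP, and 60 of the 72 MAC RUNX1 peaks (83.3%) met a PU.1 peak of MAC. Both PU.1 and C/EBPβ of the same stage were found at 2.66% of the HP RUNX1 peaks and at 61.1% of the MAC RUNX1 peaks. The lists met differ in length between the stages, with 2716 C/EBPβ peaks in HP (0.0819% of genome tiles) and 55471 in MAC (1.67%), so these shares are given side by side and not compared. At 16 of the 36 MAC only peaks PU.1 was listed at both stages, and at a further 15 in MAC alone. Ptprc, Lcp1, Fos and Ifnar2 had PU.1 in HP at a position where RUNX1 was listed only in MAC, whereas Fcgr4, Clec4d, Myo1f and the distal promoter of Runx1 had PU.1 only in MAC. The 5 MAC only peaks without PU.1 at either stage were assigned to Zfp36, Taf9b, Ralgapa2, Slc25a26 and Tspan3.

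All 21 shared peaks with PU.1 in HP also had PU.1 in MAC, and none lost it. Of the 174 HP only peaks with PU.1 in HP, 161 were in the MAC PU.1 list too, while 424 HP only peaks met PU.1 in MAC alone. Most HP only positions were thus in the MAC PU.1 list while absent from the MAC RUNX1 list. The HP only peaks with PU.1 in HP held the PU.1 consensus GAGGAAGT in 20.7% of cases, against 2.09% of those without, and 42.5% against 66.0% were within 2 kb of a coding TSS. Split by PU.1 in MAC, the HP only peaks held the consensus in 8.21% with PU.1 and 1.12% without, and 66.3% against 53.9% were within 2 kb of a TSS. These values are descriptions and were not tested.

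**Figure D1:**
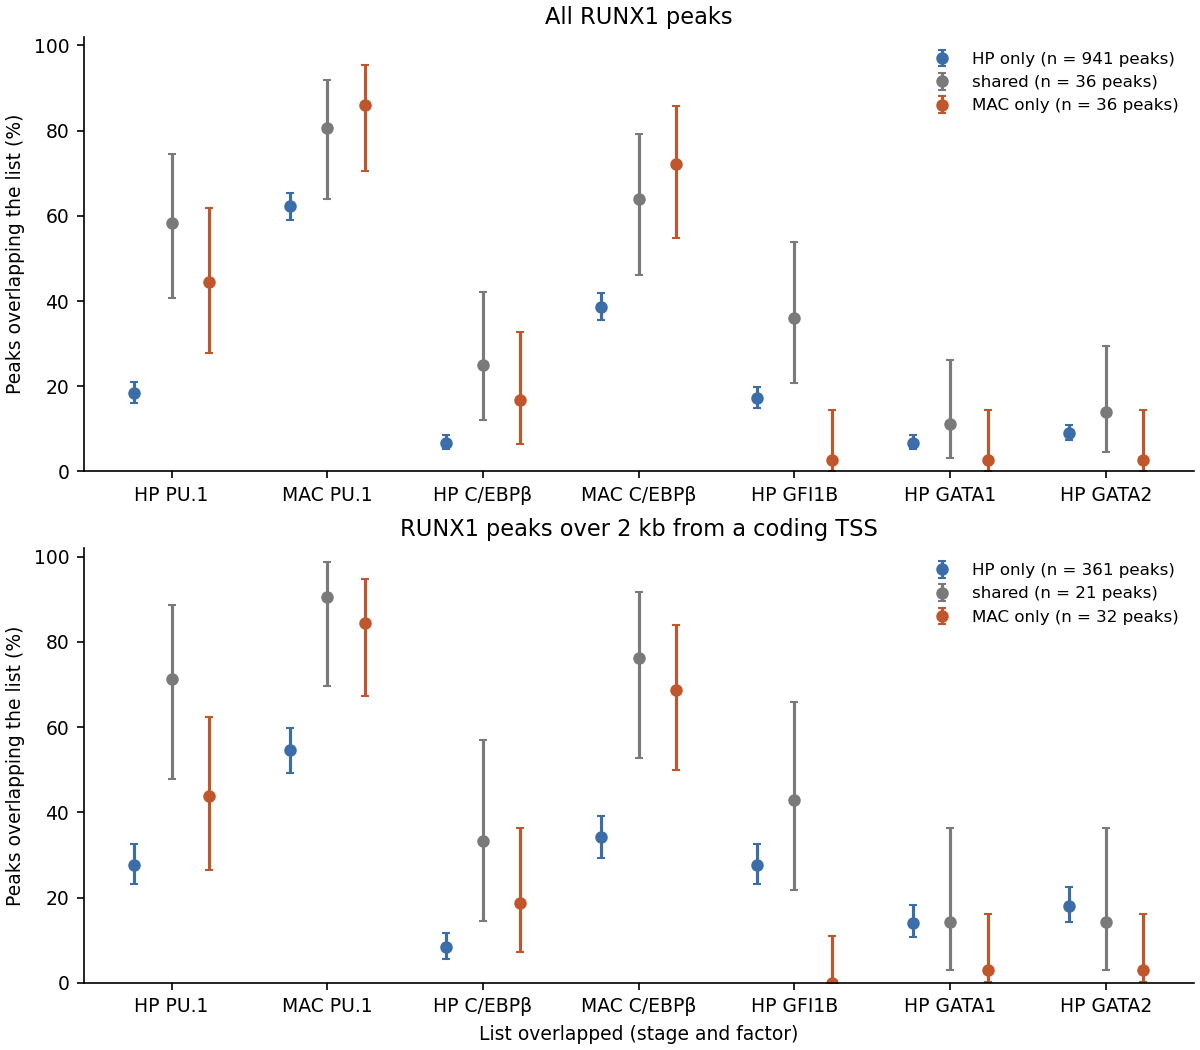
Share of RUNX1 peaks (%, y axis) that overlap each list of the same stages (x axis), for HP only (blue), shared (grey) and MAC only (orange) peaks, over all peaks (top) and over peaks more than 2 kb from a coding TSS (bottom). Points are shares, and bars are 95% exact Clopper-Pearson intervals. The HP PU.1 share is 18.5% of HP only and 58.3% of shared peaks, and GFI1B meets 36.1% of shared but 2.78% of MAC only peaks.

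Among the other factors of the progenitor stage, GFI1B separated the shared from the MAC only peaks. GFI1B in HP was found at 17.2% of HP only peaks (162 of 941), 36.1% of shared peaks (13 of 36, 20.8 to 53.8) and 2.78% of MAC only peaks (1 of 36, 0.0703 to 14.5), against 0.0608% of genome tiles. The shared share was higher than that of the MAC only peaks (exact test, adjusted p = 0.00524) and than that of the HP only peaks (exact test, adjusted p = 0.0263). Among distal peaks GFI1B met 27.7% of HP only (100 of 361), 42.9% of shared (9 of 21) and none of the 32 MAC only peaks. That count of 0 allows a share of up to 9.38% by 3 counts, or 10.9% by the exact interval. Among these distal peaks the shared set no longer differed from the HP only set past the threshold (exact test, adjusted p = 0.375). Over all peaks that call was also lost with 200 bp of overlap (exact test, adjusted p = 0.0609) and without peaks found at earlier stages (0.135). Between HP only and MAC only peaks the difference passed among distal peaks (exact test, adjusted p = 0.00111). Over all peaks it did not pass (exact test, adjusted p = 0.0653). The shared peaks with GFI1B included those assigned to Gfi1, Rara, Lmna, Tgm2, Itsn1, Nanos3, Cfdp1, Erich1, Ccdc114, Gpx6, Slc25a4 and Rpp21, and the MAC only peak with it was at Gprc5c. C/EBPβ in HP met 6.80% of HP only, 25% of shared and 16.7% of MAC only peaks. Against HP only peaks the shared share passed the test (exact test, adjusted p = 0.00604, or 0.0640 without peaks found at earlier stages), and the MAC only share did not (exact test, adjusted p = 0.101, or 0.0401 without those peaks). C/EBPβ in MAC met 38.7%, 63.9% and 72.2% of HP only, shared and MAC only peaks. Both of the latter shares exceeded that of the HP only peaks (exact tests, adjusted p = 0.0150 and 0.00127). GATA1 met 6.80%, 11.1% and 2.78% of the 3 sets and GATA2 9.03%, 13.9% and 2.78%, against 0.00754% and 0.0159% of genome tiles, and no difference of either passed the test (exact tests, adjusted p from 0.389 to 0.712).

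Progenitor binding of RUNX1 lay largely at promoters, and binding found in macrophages alone lay mostly away from them. The peak centre was within 2 kb of a coding TSS in 61.6% of HP only peaks (580 of 941, 58.4 to 64.8), 41.7% of shared peaks (15 of 36, 25.5 to 59.2) and 11.1% of MAC only peaks (4 of 36, 3.11 to 26.1). Over all genome tiles the share was 3.34%. The MAC only share was lower than that of the HP only peaks (difference -50.5 points, exact test, adjusted p = 4.2e-08) and than that of the shared peaks (difference -30.6 points, exact test, adjusted p = 0.0263, or 0.0640 without peaks found at earlier stages). The difference of -20.0 points from HP only to shared peaks did not pass (exact test, adjusted p = 0.0675). The median distance to the TSS was 0.394 kb, 5.38 kb and 18.7 kb in the HP only, shared and MAC only sets. Base composition followed the same order, with a median GC content of 60.5%, 58.0% and 50.0% and a median of 26, 15 and 7 CpG dinucleotides a peak.

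**Figure D2:**
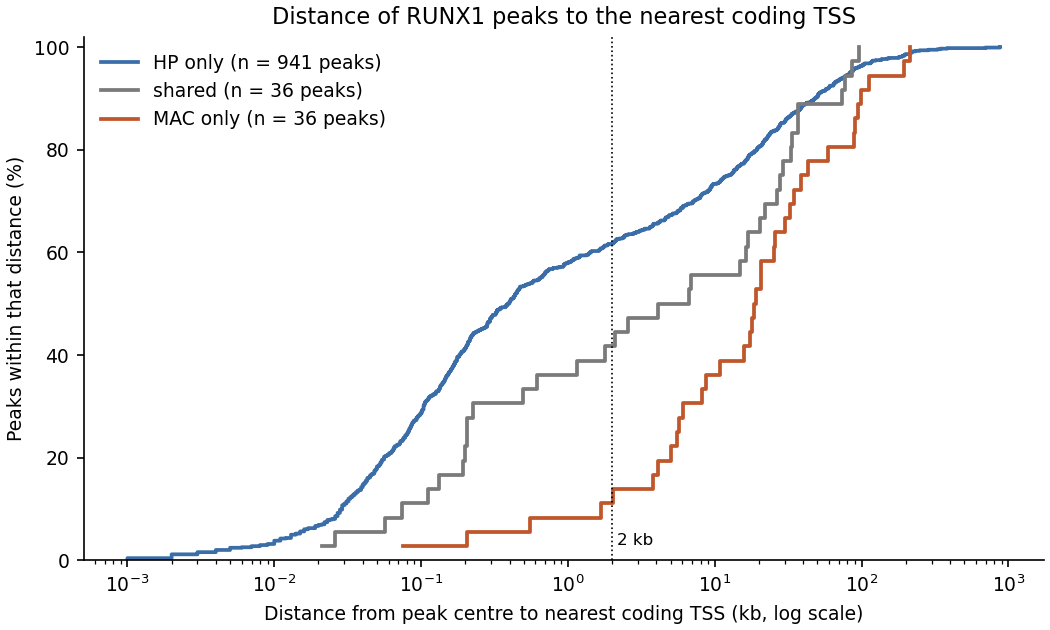
Cumulative share of RUNX1 peaks (%, y axis) against the distance from the peak centre to the nearest coding TSS (kb, log scale), for HP only (blue), shared (grey) and MAC only (orange) peaks, with the 2 kb limit dotted. At 2 kb the curves stand at 61.6%, 41.7% and 11.1%.

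The 4 MAC only promoter peaks belonged to Runx1, Clec4d, Gprc5c and Rbm43. The 15 shared promoter peaks included those of Runx1, Pgk1 and Slc25a4 (glycolysis and mitochondrial ATP exchange), Cltc, Polg, Acsl3, Gabpb1, Tsc22d2, Ccdc77, Dmwd, Ccdc114, Erich1, Dhrs11 and Zfp740. By the annotation, the HP only peaks fell in intergenic sequence in 437 cases, introns in 277, untranslated exons in 170, coding exons in 41 and noncoding exons in 16. The MAC only peaks fell in intergenic sequence in 18 cases, introns in 14, coding exons in 3 and an untranslated exon in 1. Peaks with over 50% of their bases in soft-masked repeats were rare, 4 of 941 HP only, 0 of 36 shared and 2 of 36 MAC only peaks. For the shared set the count of 0 allows up to 8.33% by 3 counts, or 9.74% by the exact interval. The MAC only ones were assigned to Ttc30a1 and Ralgapa2. Of the genome tiles 28.3% were over 50% masked. No difference in repeats passed the test (exact tests, adjusted p from 0.0625 to 1.00).

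The RUNX consensus TGTGGTT, searched on both strands, was found in 25.3% of HP only peaks (238 of 941, 22.5 to 28.2), 50.0% of shared peaks (18 of 36, 32.9 to 67.1) and 47.2% of MAC only peaks (17 of 36, 30.4 to 64.5). In windows of the same width 2 kb to either side the shares were 11.6%, 8.33% and 11.1%, and 9.11% of all genome tiles held it. Taken from the MAC peaks, the shared set held it in 17 of 36, since the site at Rara lay in the HP peak alone. The HP only share was lower than the shared (exact test, adjusted p = 0.0114) and the MAC only share (exact test, adjusted p = 0.0263). With the shorter TGTGGT the shares were 46.5%, 61.1% and 75%, and the shared peaks no longer differed from the HP only peaks past the threshold (exact test, adjusted p = 0.242). Where present, the full consensus lay near the summit, with a median of 26.0, 25.5 and 18 bp from the peak centre in the HP only, shared and MAC only sets. Among peaks over 2 kb from a TSS the consensus was found in 44.3% of HP only (160 of 361), 66.7% of shared (14 of 21) and 43.8% of MAC only peaks (14 of 32), and neither difference from HP only passed (exact tests, adjusted p = 0.239 and 1.00). Within 2 kb of a TSS it was in 13.4% of HP only (78 of 580), 26.7% of shared (4 of 15) and 75% of MAC only peaks (3 of 4, interval 19.4 to 99.4), and these were not tested apart.

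Over all peaks, no difference between sets passed the test for the other consensus sequences, all searched on both strands. The PU.1 consensus GAGGAAGT was in 5.53%, 11.1% and 11.1% of HP only, shared and MAC only peaks, and the AP-1 consensus (TGACTCA or TGAGTCA) in 6.80%, 13.9% and 13.9%. Of the genome tiles 2.43% held the PU.1 and 6.17% the AP-1 letters, and the windows 2 kb to either side held the AP-1 letters in 6.96%, 12.5% and 12.5% of cases, near the shares in the peaks. The ETS consensus CCGGAAGT was in 8.18%, 8.33% and 2.78%, against 0.245% of genome tiles, and the GATA consensus (AGATAAC or AGATAAG) in 11.3%, 8.33% and 2.78%, against 9.90%. The C/EBP consensus was in 1.70%, 2.78% and 0%, against 2.71% of tiles. The count of 0 of 36 allows up to 8.33% by 3 counts, or 9.74% by the exact interval. Among distal peaks the GATA consensus was in 21.3% of HP only and 3.12% of MAC only peaks (exact test, adjusted p = 0.0491). Shared peaks with the AP-1 letters were those of Runx1, Fosb, Fth1, Coro1c and Nt5c2. The MAC only ones were those of Zfp36, Myo1f, Slc1a7, Mrpl45 and 1600014C23Rik.

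**Figure D3:**
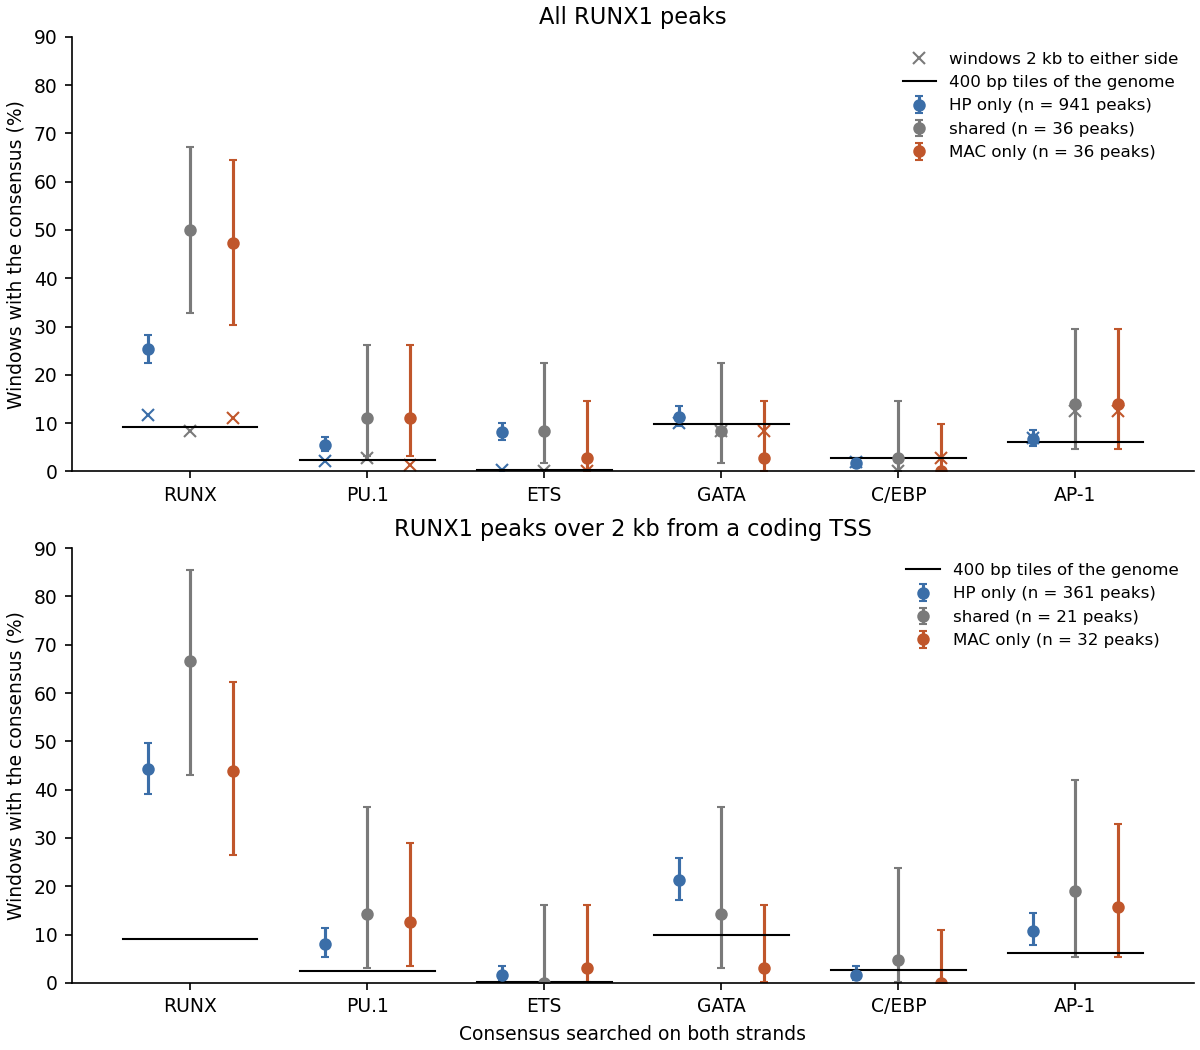
Share of windows (%, y axis) that hold each consensus (x axis) in HP only (blue), shared (grey) and MAC only (orange) RUNX1 peaks, over all peaks (top) and over peaks more than 2 kb from a coding TSS (bottom). Points are shares with 95% exact Clopper-Pearson bars, crosses are windows 2 kb to either side of all peaks, and black lines are 400 bp tiles of the genome. The RUNX share is 25.3%, 50.0% and 47.2% over all peaks and 44.3%, 66.7% and 43.8% over distal peaks.

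The Runx1 gene itself carried peaks of all 3 sets. Runx1 is read from a distal promoter P1 (TSS at chr16:92826074, minus strand) and a proximal promoter P2 (TSS at chr16:92697329), 129 kb apart. The shared peak (chr16:92696510-92696909) lay 619 bp downstream of the P2 TSS, its 2 summits 4 bp apart, and it met C/EBPβ in MAC and no other list. The MAC only peak (chr16:92825799-92826198) lay on P1, 75 bp downstream of its TSS, with 3 copies of the consensus and with PU.1 and C/EBPβ in MAC. The HP only peaks lay in the first intron, 3803 bp downstream of P1 with GATA1, GATA2 and GFI1B in HP (chr16:92822071-92822470), and 24.3 kb downstream of P1 with GATA2, PU.1 and C/EBPβ in HP and PU.1 and C/EBPβ in MAC (chr16:92801554-92801953). RUNX1 was thus listed at P2 at both stages, at P1 in MAC and in the first intron in HP.

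**Figure D4:**
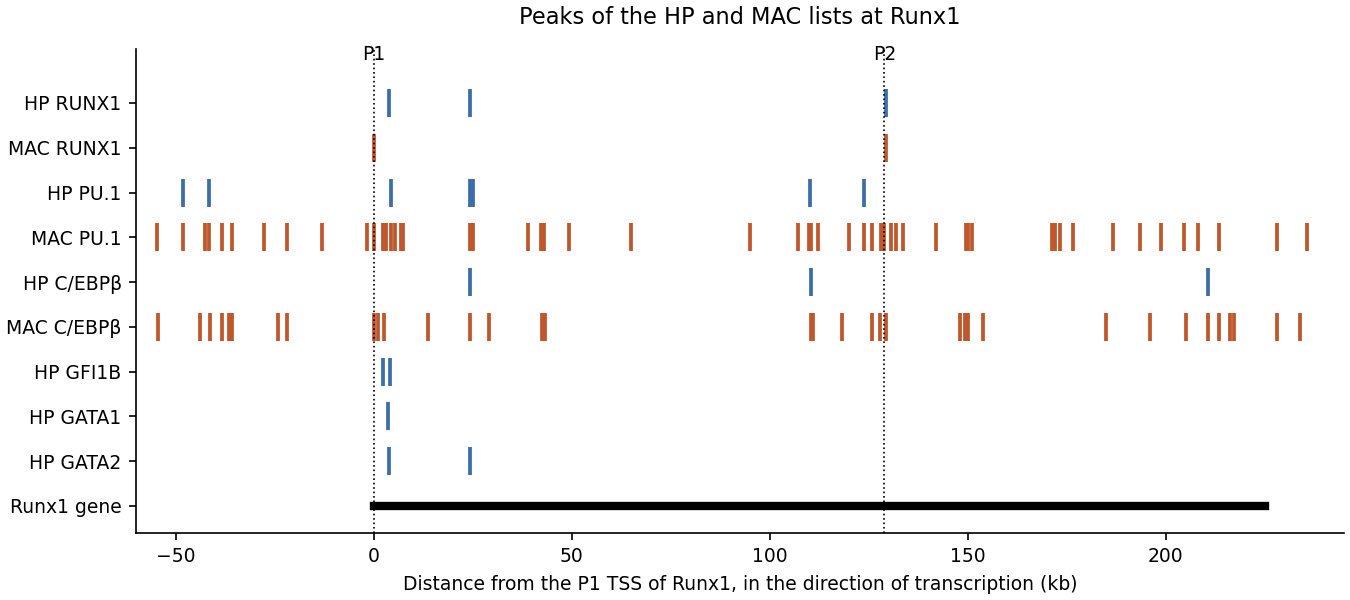
Peaks of each list (rows, 1 tick a peak; HP in blue and MAC in orange) at Runx1 against the distance from its P1 TSS in the direction of transcription (kb), with P1 and P2 dotted and the gene as a black bar. HP RUNX1 has peaks at 3.80, 24.3 and 129 kb and MAC RUNX1 at 0.0750 and 129 kb.

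In all, 8 genes carried an HP only and a MAC only peak: Runx1, Fos, Zfp608, Nedd4, Psma6, Hook2, Rplp1 and Mrpl45. Fos, an immediate-early gene, had HP only peaks 35 bp, 1391 bp and 18.6 kb upstream of its TSS and a MAC only peak 5035 bp upstream (chr12:85468655-85469054). The MAC only peak of Fos met PU.1 and C/EBPβ at both stages and held no RUNX consensus, and the HP only peak at 1391 bp held 1. At Mrpl45, Psma6 and Nedd4, the HP only peak was at the promoter (42, 114 and 216 bp upstream of the TSS) and the MAC only peak 6067, 8823 and 1802 bp away from it. At Zfp608, a zinc finger gene, the peaks lay 2118 bp apart in an intron, both with the RUNX consensus and PU.1 at both stages. At Hook2 and Rplp1 neither peak was at the promoter.

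Genes with both an HP only and a shared peak included Runx1, Lyl1, Fth1, Itsn1, Tsc22d2, Slc45a1, Nanos3, Dmwd and Ccdc12. At Lyl1, a basic helix-loop-helix factor of hematopoietic stem and progenitor cells, the HP only peak lay 60 bp downstream of the TSS with PU.1 at both stages and with GATA1 and GATA2. The shared peak of Lyl1, 2103 bp downstream with 3 copies of the consensus, met GATA1 in HP and C/EBPβ in MAC and PU.1 at neither stage. At Fth1, the ferritin heavy chain gene, the shared peak 4097 bp upstream held 2 copies of the consensus and met PU.1 at both stages. At Itsn1 all 3 HP peaks, of which 1 was shared, held the consensus and met PU.1 at both stages.

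Only 4 genes had 3 or more HP RUNX1 peaks: Gse1 with 6, and Runx1, Fos and Itsn1 with 3 each. At Gse1, which encodes a subunit of a corepressor complex, all 6 were HP only. Of these, 2 lay 119 and 117 kb upstream, 3 lay within 2 kb of a TSS (1729, 744 and 162 bp upstream) and 1 lay 21.3 kb downstream. GFI1B, GATA1 and GATA2 met the pair far upstream and the peak at 1729 bp, and none met the remaining ones.

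Blood regulators in the lists of genes chosen for this comparison were assigned peaks as follows. Over all 21000 coding genes, 4.41% were assigned an HP RUNX1 peak (927) and 0.338% a MAC RUNX1 peak (71), and no list was tested against that background. Of 64 blood regulators, 12 (18.8%) had an HP peak. The HP only ones were Cebpe, E2f2, Ets2, Fos, Id2, Lyl1, Nfe2, Smad7, Tcf12, Zbtb16 and Zfpm1, the shared ones Lyl1 and Rara, and the MAC only one Fos. The Nfe2 peak was 99 bp upstream of the TSS of this megakaryocyte and erythroid leucine zipper factor and met every other HP list except GFI1B. The Zfpm1 peak lay in an intron of this GATA cofactor gene, 32.9 kb downstream of the TSS, with PU.1 at both stages and GFI1B. The Cebpe peak, 6068 bp downstream of the TSS of this granulocyte factor gene, met C/EBPβ at both stages, GATA1, GATA2 and GFI1B. The Tcf12 peak, 21.3 kb upstream, met no other list of these stages.

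Of the RUNX family and its partners, 3 of 17 genes had an HP peak: Runx1, Runx3 and Cbfa2t3. Of all coding genes 4.41% had one, and the difference was not tested. The Runx3 peak, 50.7 kb upstream, met PU.1 at both stages. Cbfa2t3 had HP only peaks 1773 bp and 20.9 kb upstream. The nearer met PU.1 at both stages, GATA2 and GFI1B, and the farther, which held the consensus, met GATA1, GATA2 and GFI1B without PU.1. Spi1, which encodes PU.1, was assigned 1 HP only peak, in an intron 655 bp downstream of its TSS (chr2:91082860-91083259). This peak met PU.1 and C/EBPβ at both stages and held no RUNX consensus. Another HP only peak lay over a coding exon of Spi1 (chr2:91115027-91115426), was assigned to Mybpc3 by the nearest TSS and met no other list. Gfi1, a repressor that acts with GFI1B in the emergence of blood cells, had the shared peak 33.5 kb upstream, which met PU.1 at both stages and C/EBPβ, GATA1, GATA2 and GFI1B in HP.

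Of 101 myeloid receptors and effectors, 6 (5.94%) had an HP only peak, near the 4.41% of all coding genes assigned an HP peak. None had a shared peak and 3 had a MAC only peak, where 0.338% of all coding genes were assigned a MAC peak. These shares were not tested. Clec4d, a myeloid lectin receptor gene with a MAC only peak, was not in this list. The HP only ones were Cd300a, Cd9, Csf2ra, Ifngr2, Lcp2 and Vav1, receptors of leukocytes and cytokines and signalling adaptors, and none lay at a promoter. The Cd300a peak held 2 copies of the consensus and met PU.1 in HP and not in MAC, the Lcp2 and Csf2ra peaks met PU.1 at both stages, and the Vav1 peak met PU.1 at both stages and GATA1, GATA2 and GFI1B. The MAC only ones were Ptprc, which encodes CD45, Lcp1, which encodes L-plastin, and Fcgr4, an IgG receptor gene. The Ptprc peak lay in an intron 38.6 kb downstream of the TSS with PU.1 and C/EBPβ at both stages and 1 copy of the consensus. The Lcp1 peak lay in an intron 43.1 kb downstream with PU.1 at both stages, and the Fcgr4 peak 20.6 kb upstream with PU.1 and C/EBPβ in MAC.

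The remaining lists of genes are described by their counts, and genes named for counts of 5 or fewer were chosen after their values were seen. For scale, 4.41% of all coding genes were assigned an HP peak, and no list was tested against that share. None of the 26 erythroid genes chosen had a peak in any set, a list too short for a count of 0 to set it apart. Of 30 megakaryocyte and platelet genes 5 had an HP only peak (F2r, Itgb3, Nfe2, P2rx1 and Tln1). Nfe2, which also acts in erythroid cells, was not in the erythroid list. Of 24 receptors of progenitor and stem cells 3 had one (Adgrg1, Notch2 and Tgfbr1), and of 33 endothelial and hemogenic genes 2 (Gja4 and Sox7). Of 50 adhesion and cytoskeleton genes 8 had an HP peak, 1 of them shared (Coro1c). Of 27 cell cycle and survival genes 6 had an HP only peak. Among housekeeping groups, an HP peak was assigned to 8.14% of 86 cytosolic ribosomal protein genes, 6.41% of 78 mitochondrial ribosomal protein genes, 8.45% of 71 translation factor genes, 9.43% of 53 splicing factor genes, 4.08% of 49 proteasome subunit genes and none of 57 replication-dependent histone genes. Of 395 zinc finger genes named Zfp, 4.81% had one.

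Among MAC only peaks of other genes, the consensus was found at Clec4d, 1692 bp upstream of the TSS of this myeloid lectin receptor gene, with PU.1 and C/EBPβ in MAC. It was also found at Lmtk2, Tango6, Taf9b and 1600014C23Rik with more than 1 copy, and with 1 copy at Gprc5c, Mrpl45, Slc25a26, Foxred2, Cox4i1, Enpp5, Wnt11, Zfp608, Tomm20 and Tcf7l2. All of these peaks with the consensus met PU.1 in MAC, except those of Taf9b and Slc25a26. Without the consensus, PU.1 in MAC was met at Ahrr, Fcgr4, Fgd2, Hook2, Ifnar2, Lcp1, Myo1f and Nedd4. The same held at Ppargc1a, Psma6, Rbm43, Rplp1, Slc1a7, Slc6a4 and Ttc30a1. Among shared peaks of other genes, the consensus was found at Erich1, Zfp740, Dmwd, Fosb, Lmna, Vgll4, Cfdp1, Coro1c, Mrps18a, Nt5c2, Lifr, Slc45a1 and Itsn1. The shared peaks assigned to F5, Tgm2, Heatr1, Ccdc12, Nanos3, Gpx6 and Rpp21 lay over 2 kb from a TSS and held no consensus.

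**Figure D5:**
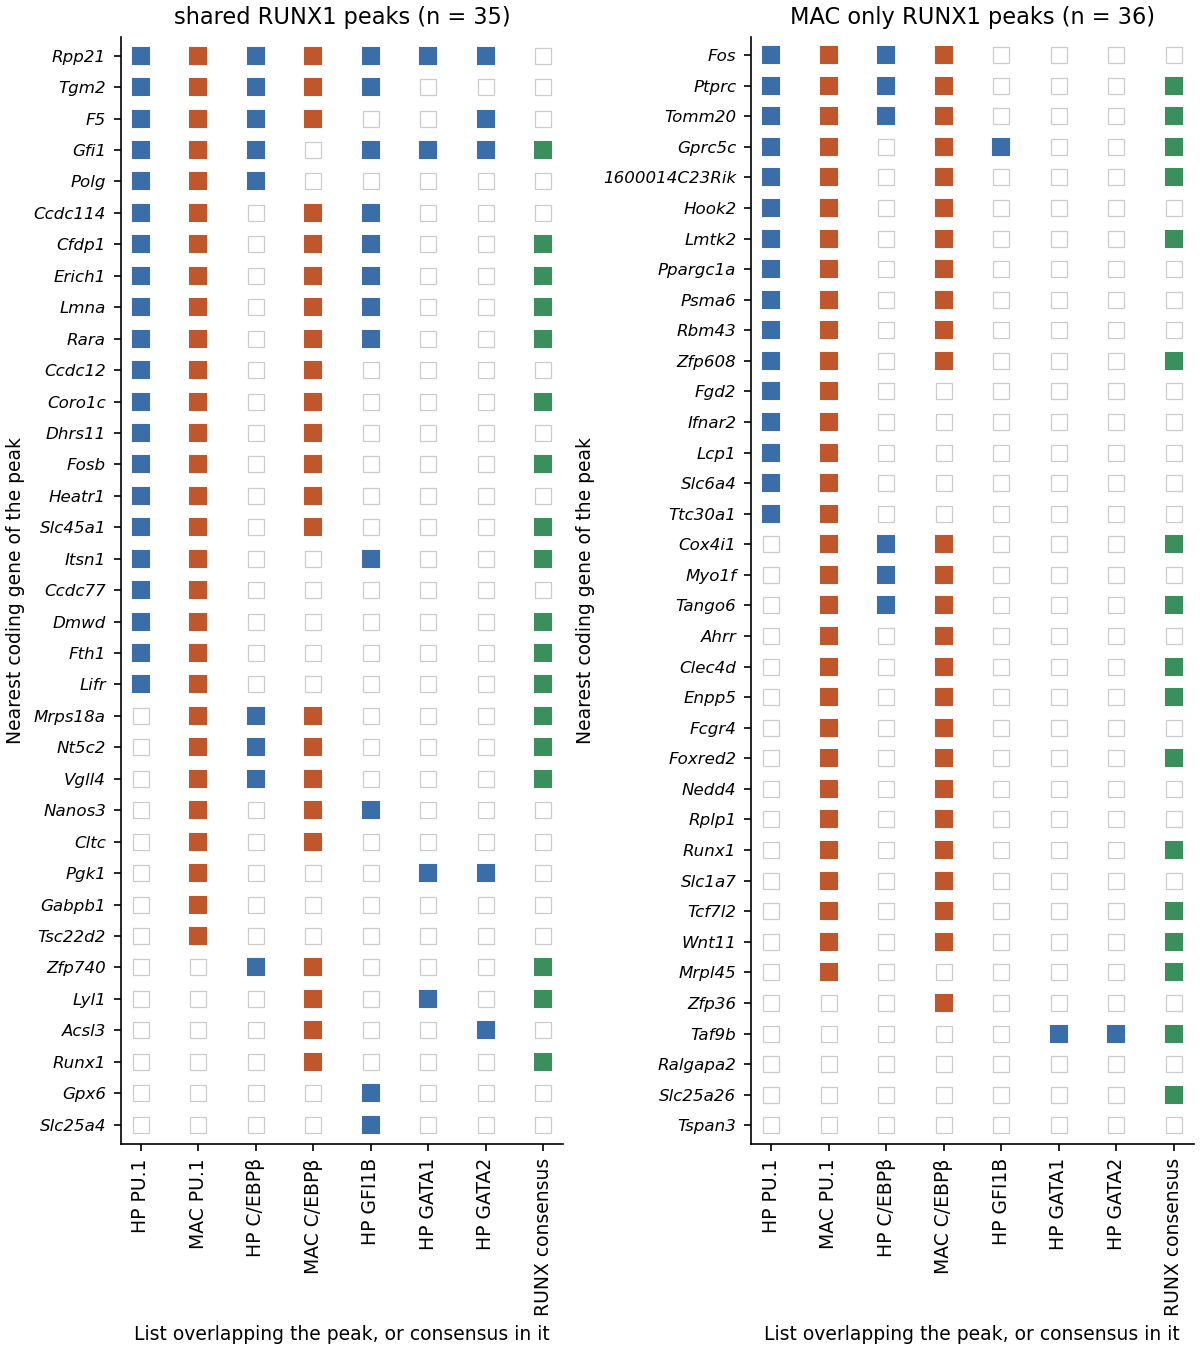
Of the shared RUNX1 peaks 35 of 36 (left), and all 36 MAC only peaks (right), 1 row a peak named by its nearest coding gene, with filled squares where an HP list (blue) or MAC list (orange) overlaps the peak or where it holds the RUNX consensus (green). PU.1 in MAC fills 29 rows on the left and 31 on the right, and GFI1B fills 1 row on the right.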

How the data were processed

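ChIP-seq peak lists for 14 combinations of stage and factor were used, 1 list a group. Per the study's methods and the labels, the authors aligned reads to mm10 with Bowtie, removed duplicates and called peaks with MACS against input. The threshold was chosen for each list (less strict for MAC RUNX1, whose technical runs were combined). They then refined the quality of the data with polyPeak and set a common width around the summits. For tool versions, none is given in the sources used here. The deposited files give positions alone (coordinates in base pairs, other columns and scores absent), so the strength of binding and the depth were not analysed here.

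Peaks were overlapped (minimum 1 bp, counts tested against bedtools 2.31.1) and assigned to the nearest of 26032 TSS of curated coding RefSeq transcripts (21000 genes, GRCm38), with promoter peaks within 2 kb. Shares of peaks were compared between sets with Fisher's exact test (two-sided, scipy 1.17.1), adjusted by Benjamini-Hochberg over 15 measures and 3 set pairs (threshold 0.05), in a procedure tested on simulated data. Tests treat peaks as independent. Genome shares are over 6618338 gap-free tiles of 400 bp. Shared peaks are represented by their HP peaks. Genes were named by rule: nearest genes of shared and MAC only peaks, those of 3 lists (blood regulators, RUNX family and partners, myeloid genes) for HP only peaks (in other lists, counts of 5 or fewer are named too), and loci with at least 3 HP peaks or with peaks of several sets. Members and gene lists were chosen with earlier results of these data known. Alternatives were a longer overlap, other promoter limits and TSS sets, a shorter consensus, a central window, distal peaks, MAC peaks for the shared set, and leaving out peaks found in the 5 lists of earlier stages. Some genes are not reported here.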

Additional observations from a re-analysis of the deposited data

Results flagged for a closer look

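The lists of the earlier stages (mesoderm, hemangioblast and hemogenic endothelium) served in the comparisons only to leave peaks out, and some RUNX1 peaks lay in them. At least 1 of these 5 lists overlapped 6.06% of HP only peaks (57 of 941, exact 95% interval 4.62 to 7.78) and 16.7% of shared peaks (6 of 36, 6.37 to 32.8). They are listed here because more than 3 peaks of each set were met, above the limit that a count of 0 allows. Of the 400 bp tiles of the genome, each of these lists met between 0.00293% (GATA2 in hemangioblast) and 0.0355% (C/EBPβ in mesoderm), and no test against tiles was run. For MAC only peaks the share was 5.56% (2 of 36, 0.680 to 18.7), at Ahrr and Taf9b. The intervals of the HP only, shared and MAC only sets all overlap one another. The list most often met by HP only peaks was that of ELK4 in mesoderm (28 peaks). Differences between the sets were not tested.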

How the results depend on the processing

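Peaks carry no scores, so a stricter calling threshold could not be applied. The 36 peaks in the shared and the MAC only sets limit what could be seen: over all peaks their exact intervals span up to 34.2 percentage points. Intervals among distal or promoter peaks alone can be wider. No paired analysis was possible because each group had 1 list. The numbers of peaks in the sets stayed within 1.5 times under every alternative tried. Of 56 alternatives of differences that passed the test, 55 kept their direction and 47 also their side of the threshold. Those with MAC peaks for the shared set are counted there, and they could not alter the 5 differences between HP only and MAC only peaks. They also left the list overlaps and promoter shares of the shared peaks as they were, so these rows do not measure stability. Values are differences in percentage points, second set named minus first, and the causes were not tested. With distal peaks only, the differences that no longer passed were HP only to MAC only for HP PU.1 (16), HP only to shared for GFI1B (15.2), and for the RUNX consensus HP only to shared (22.3) and HP only to MAC only, which also reversed. Those that newly passed were HP only to shared for MAC PU.1 (35.9), and HP only to MAC only for GFI1B (-27.7) and for the GATA consensus (-18.2). Reversed there were shared to MAC only for MAC PU.1 (-6.10), MAC C/EBPβ (-7.44) and the ETS consensus (3.12), HP only to shared for GATA2 (-3.72) and the ETS consensus (-1.66), and HP only to MAC only for the RUNX consensus (-0.571) and the ETS consensus (1.46). Without peaks in a list of an earlier stage, HP only to shared for HP C/EBPβ (11.7) and GFI1B (15.9) and shared to MAC only for promoters (-28.2) no longer passed, and HP only to MAC only for HP C/EBPβ (12.7) newly passed. Reversed there were shared to MAC only for HP C/EBPβ (0.98) and HP only to shared for GATA1 (-3.34), GATA2 (-2.27) and the ETS consensus (-1.25). With 200 bp of overlap, HP only to shared for GFI1B (15.8) no longer passed. With the shorter consensus TGTGGT, HP only to shared (14.6) no longer passed and shared to MAC only (13.9) reversed. In the central 200 bp, HP only to shared reversed for the ETS (-2.96) and C/EBP (-0.850) consensus.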

Other observations

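Chromosome 8 held 101 of the 977 HP RUNX1 peaks (10.3%, exact 95% interval 8.5 to 12.4) and 9 of the 72 MAC RUNX1 peaks (12.5%, 5.88 to 22.4), and 4.67% of coding TSS. In the other lists of these stages the share ran from 5.89% (MAC C/EBPβ) to 8.42% (HP GFI1B) among those counted, which were PU.1 and C/EBPβ at both stages and GFI1B. The peaks near Gse1, Lyl1, Cbfa2t3 and Zfpm1 are among those on chromosome 8. No copy number of these cells was used here, and what sets the share was not tested. This chromosome was chosen after its count was seen.

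The shared peak assigned to Rpp21 (chr17:36231209-36231608) overlapped a peak in all 14 lists of the series, from mesoderm to macrophages, and held no RUNX consensus. The shared peak near Gfi1 was in 11 of the 14 lists. On chromosome X, the shared peak 205 bp upstream of Pgk1 and the MAC only peak assigned to Taf9b, 17.1 kb away from it, were both in the GATA1 and GATA2 lists of HP.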
